A study of Mus musculus with 12 samples.

Results

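The imprinted fetal growth genes are a set of 10 mouse genes that are expressed mainly from the copy inherited from a single parent: Igf2, Mest, Dlk1, Peg3, Plagl1, Ndn, H19, Meg3, Cdkn1c and Grb10. They were taken by symbol from the 55401 genes of the deposited table, and all 10 were found. Expression was measured by RNA sequencing (RNA-seq) of dermis from C57BL/6 mice aged 6 weeks, in 4 groups of 3 biological replicates: wild type (WT) on day 0, Cthrc1-/- on day 0, WT on day 7 and Cthrc1-/- on day 7. The series describes paired wounds of equivalent size, and Cthrc1-/- mice lack a secreted collagen triple helix repeat protein. No further allele or agent is given, the knockout is not described as limited to a cell type, and no pooling of animals is stated. The members were selected on their FPKM in these samples, day 7 against day 0 in each genotype, so that contrast is described below by values and log2 changes without a test. Genotypes were compared within each day by a test, although the day 0 and day 7 samples in those tests are the same ones that entered the choice.

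Genomic imprinting marks a gene by DNA methylation in the egg or sperm, so that after fertilization the maternal or the paternal copy stays silent. Many imprinted genes act on growth before birth, are highly expressed in the fetus and decline after weaning, and several are known as a co-expressed network that is also active in muscle precursors and other progenitor cells. Paternally expressed members tend to promote growth, with IGF2 as the main fetal growth factor, and maternally expressed ones tend to restrain it. The counts do not separate the parental alleles, so imprinting itself was not measured.

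H19, Igf2 and Cdkn1c lie on distal chromosome 7, with 72.6 kb between H19 and Igf2 and 792 kb between Igf2 and Cdkn1c. Dlk1 and Meg3 lie 77.7 kb apart on chromosome 12. Peg3 and Ndn are elsewhere on chromosome 7, Mest is on chromosome 6, Plagl1 on chromosome 10 and Grb10 on chromosome 11. Coordinates here and below are on GRCm38, from GENCODE M21 for genes. Of the 10 genes, 4 host microRNAs on their own strand, and RefSeq (GRCm38.p6) lists 9 mature sequences with 9 different seeds in them. The 6 hosted by H19, Mest and Igf2 are shown because they are cut from 3 of the transcripts described below. Capitals mark the seed, bases 2 to 8 from the 5′ end.

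mmu-miR-675-5p: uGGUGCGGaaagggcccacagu

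mmu-miR-675-3p: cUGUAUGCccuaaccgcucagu

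mmu-miR-335-5p: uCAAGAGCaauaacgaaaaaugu

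mmu-miR-335-3p: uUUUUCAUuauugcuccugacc

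mmu-miR-483-5p: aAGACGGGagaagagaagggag

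mmu-miR-483-3p: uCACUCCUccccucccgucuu

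The miR-675 hairpin lies within H19, miR-335 within Mest and miR-483 within Igf2. These poly(A)-selected libraries read the host transcripts and not the mature microRNAs: the table's own entries for Mir675, Mir335 and Mir483 reached at most 2, 0 and 0 counts in any sample.

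RefSeq held promoter windows for 8 of the 10 genes, 15 windows in all; H19 and Cdkn1c are named only. The 250 bases before each start were searched for GGGGCCCC, the core bound by the PLAG family to which PLAGL1 belongs and its own reverse complement, and on both strands for a core of the CTCF motif, each counted by itself. GGGGCCCC was found once, in the Peg3 window, and in 0.889% of all 32851 windows. The CTCF core was found in 0 of the 15 windows and in 0.0335% of all windows. The number of CG pairs, the sites of DNA methylation, ranged from 0 to 40 over the 15 windows against a median of 6 over all windows. Windows of Peg3 (chr7:6730420-6730669, minus strand, GGGGCCCC in capitals), Mest (chr6:30737800-30738049, plus strand, CG in capitals) and Grb10 (chr11:12037421-12037670, minus strand, CG in capitals) are shown as the one with the motif, that of the gene with the steepest rise, and the one richest in CG.

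Peg3: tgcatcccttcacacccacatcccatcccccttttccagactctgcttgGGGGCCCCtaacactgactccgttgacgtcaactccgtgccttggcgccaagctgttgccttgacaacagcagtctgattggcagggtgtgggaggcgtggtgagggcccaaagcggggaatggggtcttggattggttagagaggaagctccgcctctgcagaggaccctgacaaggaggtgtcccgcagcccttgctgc

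Mest: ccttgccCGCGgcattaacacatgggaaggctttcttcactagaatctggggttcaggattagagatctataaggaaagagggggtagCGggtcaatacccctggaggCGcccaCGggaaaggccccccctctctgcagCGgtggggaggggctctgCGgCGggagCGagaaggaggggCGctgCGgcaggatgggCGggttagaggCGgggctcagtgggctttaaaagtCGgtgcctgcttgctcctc

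Grb10: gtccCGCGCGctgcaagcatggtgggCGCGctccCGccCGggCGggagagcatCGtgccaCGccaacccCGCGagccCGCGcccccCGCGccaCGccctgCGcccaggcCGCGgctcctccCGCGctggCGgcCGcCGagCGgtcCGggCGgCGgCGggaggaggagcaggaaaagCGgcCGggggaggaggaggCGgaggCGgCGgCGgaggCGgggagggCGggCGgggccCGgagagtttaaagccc

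The Mest window holds 14 CG pairs and the Grb10 window 40, more than 70.6% and 98.7% of all windows. A match of letters is a description of the window and not a binding site.

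Libraries held between 48329668 and 76938132 counts, and those of the members ranged from 12 (Dlk1) to 36335 (Meg3). Cthrc1 itself was at most 0.151 FPKM (fragments scaled to transcript length and library depth) in the 6 Cthrc1-/- samples and at least 21.1 FPKM in the 6 WT samples. Libraries differed between and within groups on marker lists. Summed over 12 fibroblast markers, all detected in every sample, the level was 4923 to 6473 FPKM in WT day 0 but 380 to 2487 FPKM in Cthrc1-/- day 0, lowest in replicate 3. On day 7 it was 3672 to 5448 FPKM in WT and 2341 to 3660 FPKM in Cthrc1-/-. Hair follicle keratinocyte markers, 15 in number, summed to 41.3 to 49.3 FPKM in WT day 0 and to 291, 5358 and 13191 FPKM in Cthrc1-/- day 0 replicates 1 to 3. On day 7 they summed to 1760 to 4249 FPKM in WT and 575 to 5747 FPKM in Cthrc1-/-, so that WT day 0 was lowest. Sums of 10 proliferation markers were also lowest in WT day 0 (33.7 to 47.6 FPKM). These were 73.0 to 144 FPKM in Cthrc1-/- day 0, 99.6 to 148 FPKM in WT day 7 and 115 to 141 FPKM in Cthrc1-/- day 7. In WT day 7 replicate 1, 10 macrophage markers summed to 1628 FPKM, against 869 and 440.2 FPKM in replicates 2 and 3. In bulk tissue, fewer cells of a type and less RNA per cell cannot be told apart.

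Between day 0 and day 7 the imprinted growth genes stood higher on day 7 in Cthrc1-/- dermis, all 10 of them by mean, and 8 of 10 did so in WT. The median log2 change of the 10 was 2.56 in Cthrc1-/- and 0.44 in WT, against -0.013 and -0.0019 over all 14313 genes tested. With the counts of an overlapping gene model summed into Igf2, as described below, the Cthrc1-/- median was 2.36. H19, Mest and Dlk1 had the steepest slopes in Cthrc1-/-, at 28.4-fold, 38.6-fold and 29.8-fold, and Peg3 and Ndn had fold values below 1 in WT. Dlk1 reached the mean of 1 FPKM needed for testing only through its Cthrc1-/- day 7 samples.

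**Figure D1:**
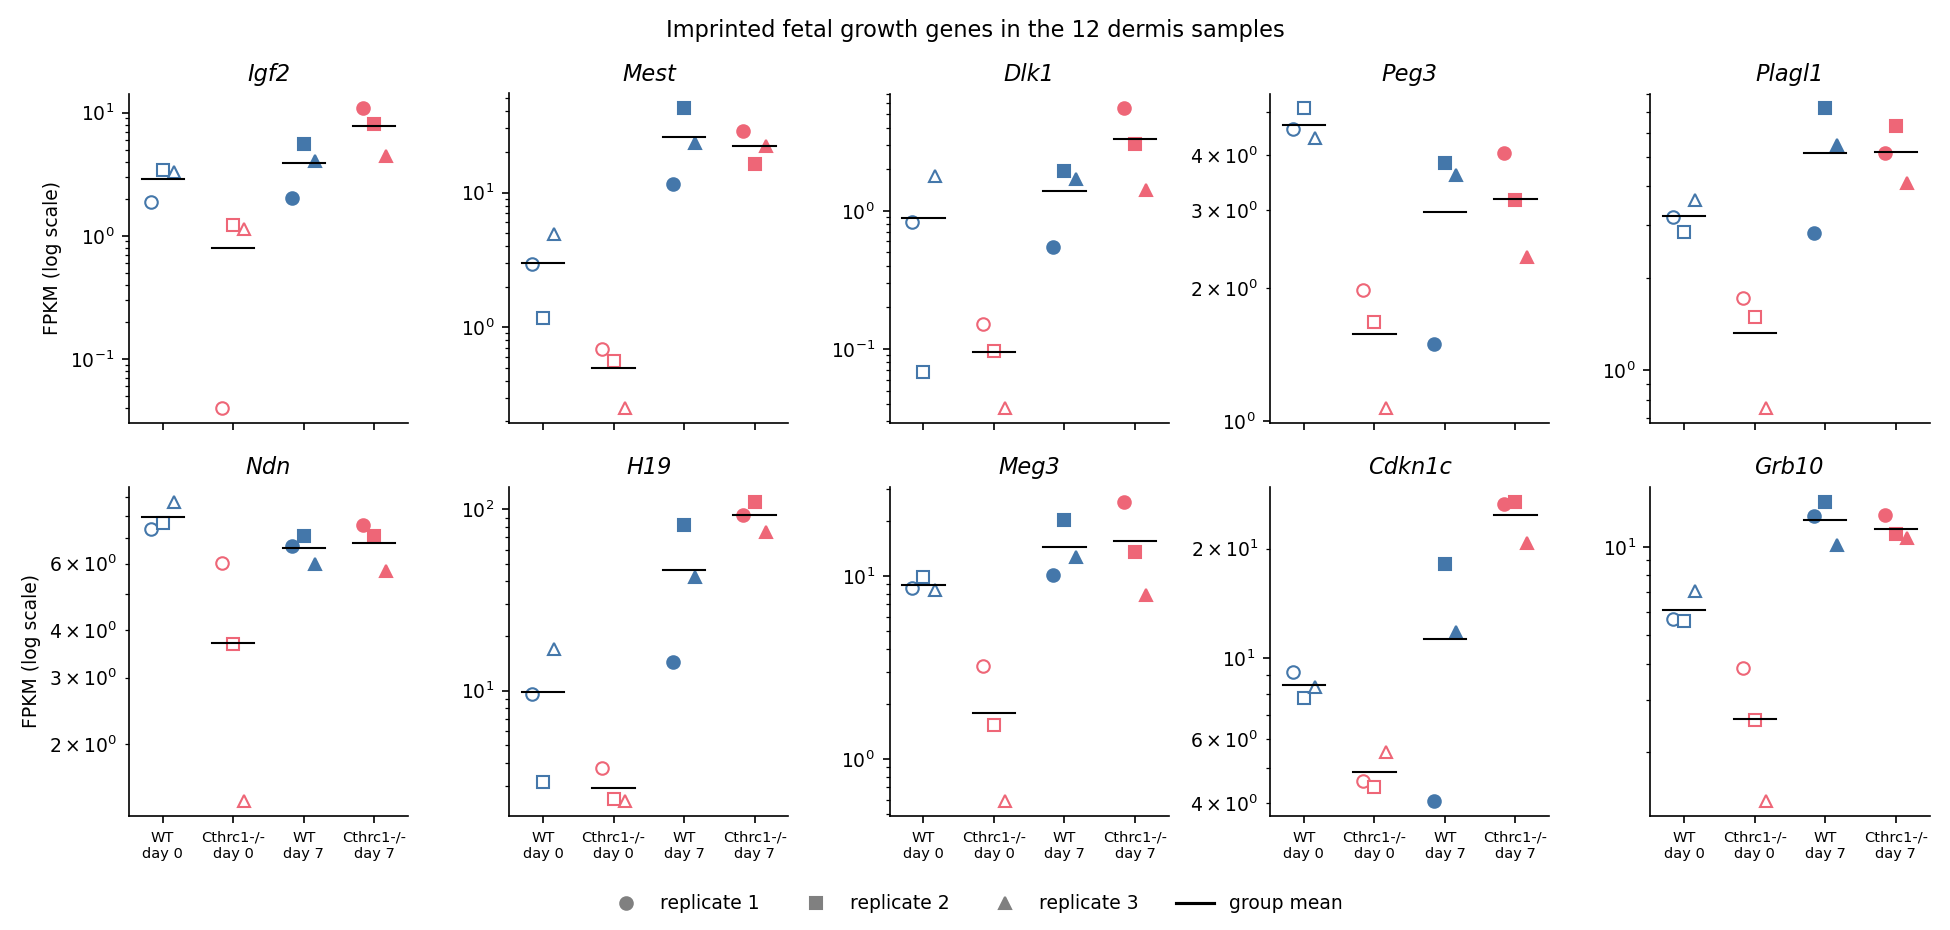
FPKM of each gene on a log axis, 1 panel per gene, with a point for each of the 3 replicates (circle, square and triangle for replicates 1 to 3) and a line at the group mean; day 0 symbols are open and day 7 symbols filled, WT is blue and Cthrc1-/- red. Cthrc1-/- day 0 has the lowest mean of the 4 groups for every gene, and the isolated low Igf2 point at 0.0400 FPKM is the sample in which the overlapping model Gm49394 held counts.

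Among the paternally expressed genes, Igf2 (ENSMUSG00000048583, chr7:142650766-142666816, minus strand) encodes insulin-like growth factor 2, which signals through the IGF1 and insulin receptors. It was at 1.90, 3.45 and 3.28 FPKM in WT day 0 replicates 1 to 3 and at 2.04, 5.56 and 4.03 FPKM in WT day 7. In Cthrc1-/- it was at 0.0400, 1.23 and 1.13 FPKM on day 0 and at 10.8, 8.09 and 4.49 FPKM on day 7. The WT days overlapped and the Cthrc1-/- days did not. The value of Cthrc1-/- day 0 replicate 1 came from 19 counts, and in that library alone the gene model Gm49394, which spans Igf2 on the same strand, held 505 counts, with 0 in the other 11. Summing the models gave 524 counts there, beside 427 and 346 in replicates 2 and 3, and a day change in Cthrc1-/- of 2.53 (standard error 0.404) on the log2 scale in place of 3.16 (standard error 0.879). The division of reads between these models is therefore uncertain, and the Igf2 values with both models summed are given beside its tests.

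Mest (ENSMUSG00000051855, chr6:30723547-30748465, plus strand) encodes a membrane protein of the alpha/beta hydrolase family, known from mesoderm and from growing fat. Day 0 values were 2.96, 1.17 and 4.89 FPKM in WT and 0.693, 0.560 and 0.251 FPKM in Cthrc1-/-. Day 7 values were 11.6, 42.1 and 23.4 FPKM in WT and 28.4, 16.3 and 22.2 FPKM in Cthrc1-/-. Every day 7 sample lay above every day 0 sample of its genotype, with log2 changes of 2.87 (standard error 0.614) in WT and 5.27 (standard error 0.690) in Cthrc1-/-. Copg2 overlaps the end of Mest on the other strand at up to 17.1 FPKM, and whether the counting used strand is not given in the sources used here.

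Dlk1 (ENSMUSG00000040856, chr12:109452823-109463336, plus strand) encodes a transmembrane and shed protein with EGF-like repeats that marks fat and muscle precursors. It was the lowest of the 10 genes by mean in 3 of the 4 groups, the exception being Cthrc1-/- day 7. WT held 0.823, 0.0677 and 1.78 FPKM on day 0 and 0.545, 1.94 and 1.70 FPKM on day 7, with overlapping days. In Cthrc1-/- the values were 0.152, 0.0968 and 0.0374 FPKM on day 0, from 63, 34 and 12 counts, and 5.50, 3.06 and 1.41 FPKM on day 7. The Cthrc1-/- log2 change was 4.89 (standard error 1.09). WT day 0 replicate 2, at 36 counts, lay within the Cthrc1-/- range.

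Peg3 (ENSMUSG00000002265, chr7:6703892-6730431, minus strand) encodes a large zinc finger protein. It stood at 4.59, 5.10 and 4.37 FPKM in WT day 0 and at 1.49, 3.83 and 3.60 FPKM in WT day 7, so that all WT day 7 samples were lower. In Cthrc1-/- it stood at 1.98, 1.68 and 1.07 FPKM on day 0 and at 4.05, 3.16 and 2.35 FPKM on day 7, so that all day 7 samples were higher. Log2 changes were -0.87 (standard error 0.341) in WT and 0.84 (standard error 0.341) in Cthrc1-/-. No other member separated its days in opposite directions in the 2 genotypes.

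Plagl1 (ENSMUSG00000019817, chr10:13060504-13131694, plus strand) encodes a zinc finger transcription factor known to bind near several other imprinted genes. Its values were 3.17, 2.84 and 3.60 FPKM in WT day 0 and 2.82, 7.19 and 5.45 FPKM in WT day 7, where replicate 1 lay below the day 0 range. The Cthrc1-/- samples held 1.72, 1.49 and 0.753 FPKM on day 0 and 5.16, 6.32 and 4.12 FPKM on day 7, without overlap, a log2 change of 1.80 (standard error 0.374). Ndn (ENSMUSG00000033585, chr7:62346569-62350262, plus strand) encodes necdin, a protein that restrains the cell cycle in neurons and other cells. WT values were 7.41, 7.67 and 8.74 FPKM on day 0 and 6.69, 7.08 and 5.97 FPKM on day 7, and Cthrc1-/- values were 6.01, 3.67 and 1.42 FPKM and 7.61, 7.11 and 5.74 FPKM. Ndn had the smallest day change of the 10 in Cthrc1-/-, with a log2 change of -0.45 (standard error 0.418) in WT and of 0.69 (standard error 0.419) in Cthrc1-/-, where replicate 1 of day 0 exceeded replicate 3 of day 7.

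Among the maternally expressed genes, H19 (ENSMUSG00000000031, chr7:142575529-142578143, minus strand) is a long non-coding RNA that shares enhancers with Igf2 and is abundant in fetal muscle and liver. In WT it was at 9.62, 3.13 and 16.9 FPKM on day 0 and at 14.4, 81.8 and 42.6 FPKM on day 7. The WT days overlapped through day 7 replicate 1. In Cthrc1-/- it was at 3.73, 2.52 and 2.46 FPKM on day 0 and at 93.3, 110.04 and 75.2 FPKM on day 7, where the lowest day 7 sample was 20.2 times the highest day 0 sample. H19 was the highest of the 10 genes per length in 3 of the 4 groups, and in Cthrc1-/- day 7 alone no sample of the next gene (Cdkn1c) reached its range. Its log2 change was 2.00 (standard error 0.639) in WT and 4.83 (standard error 0.724) in Cthrc1-/-.

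The H19 to Igf2 ratio of FPKM, with Gm49394 added to Igf2, was 5.07, 0.908 and 5.16 in WT day 0 and 2.47, 2.05 and 2.18 in Cthrc1-/- day 0. On day 7 it was 7.06, 14.7 and 10.6 in WT and 8.63, 13.6 and 16.8 in Cthrc1-/-. Every day 7 ratio exceeded every day 0 ratio, so that H19 was higher relative to its neighbour on day 7 in both genotypes.

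Meg3 (ENSMUSG00000021268, chr12:109541001-109571726, plus strand) is a long non-coding RNA with growth-restraining activity, transcribed from the other parental copy of the Dlk1 domain. It was at 8.62, 9.92 and 8.40 FPKM in WT day 0 and at 10.1, 20.2 and 12.7 FPKM in WT day 7. Cthrc1-/- samples held 3.24, 1.53 and 0.588 FPKM on day 0 and 25.5, 13.5 and 7.88 FPKM on day 7. The days were apart in each genotype, in WT by a narrow gap, with log2 changes of 0.48 (standard error 0.579) and 2.93 (standard error 0.622). Rian, another non-coding RNA of that maternal transcript cluster and no member, was at 2.52 to 2.78 FPKM in WT day 0 and 0.258 to 0.968 FPKM in Cthrc1-/- day 0. On day 7 Rian was at 2.87 to 3.84 FPKM in WT and 2.05 to 4.28 FPKM in Cthrc1-/-, so that it was lowest in the same group as Meg3. Mirg, further along the cluster, was at 0.674 to 1.35, 0.0606 to 0.334, 1.22 to 1.51 and 0.835 to 1.51 FPKM in the same order of groups, and was too low to be tested.

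Cdkn1c (ENSMUSG00000037664, chr7:143458339-143461050, minus strand) encodes p57, an inhibitor of cyclin-dependent kinases that stops the cell cycle as cells differentiate. WT samples held 9.20, 7.81 and 8.37 FPKM on day 0 and 4.05, 18.1 and 11.8 FPKM on day 7, where replicate 1 lay below and replicates 2 and 3 above the day 0 range. Cthrc1-/- samples held 4.60, 4.44 and 5.55 FPKM on day 0 and 26.5, 26.9 and 20.8 FPKM on day 7, a log2 change of 2.20 (standard error 0.386). Grb10 (ENSMUSG00000020176, chr11:11930508-12038683, minus strand) encodes an adaptor that binds the insulin and IGF1 receptors and limits their signal. It was at 5.67, 5.59 and 7.06 FPKM in WT day 0 and 12.7, 14.3 and 10.1 FPKM in WT day 7, and at 3.87, 2.57 and 1.36 FPKM and 12.9, 11.1 and 10.7 FPKM in Cthrc1-/-. Both genotypes separated their days for Grb10, with log2 changes of 0.84 (standard error 0.341) in WT and 1.97 (standard error 0.351) in Cthrc1-/-.

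Counted over the 10 genes, day 7 lay wholly above day 0 for 9 in Cthrc1-/- (all but Ndn) and for 3 in WT (Mest, Meg3 and Grb10), and wholly below it for 2 in WT (Peg3 and Ndn). The same held for 21.5% of all genes tested in Cthrc1-/-, for 29.8% upward in WT and for 14.1% downward in WT. At an edgeR adjusted p under 0.05, 5 of the 10 were higher on day 7 in Cthrc1-/-, where 0.859% of all genes were, and 1 in WT, where 6.04% were, while 0 were lower in either. Since this contrast chose the genes, nothing is read from these counts.

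**Figure D2:**
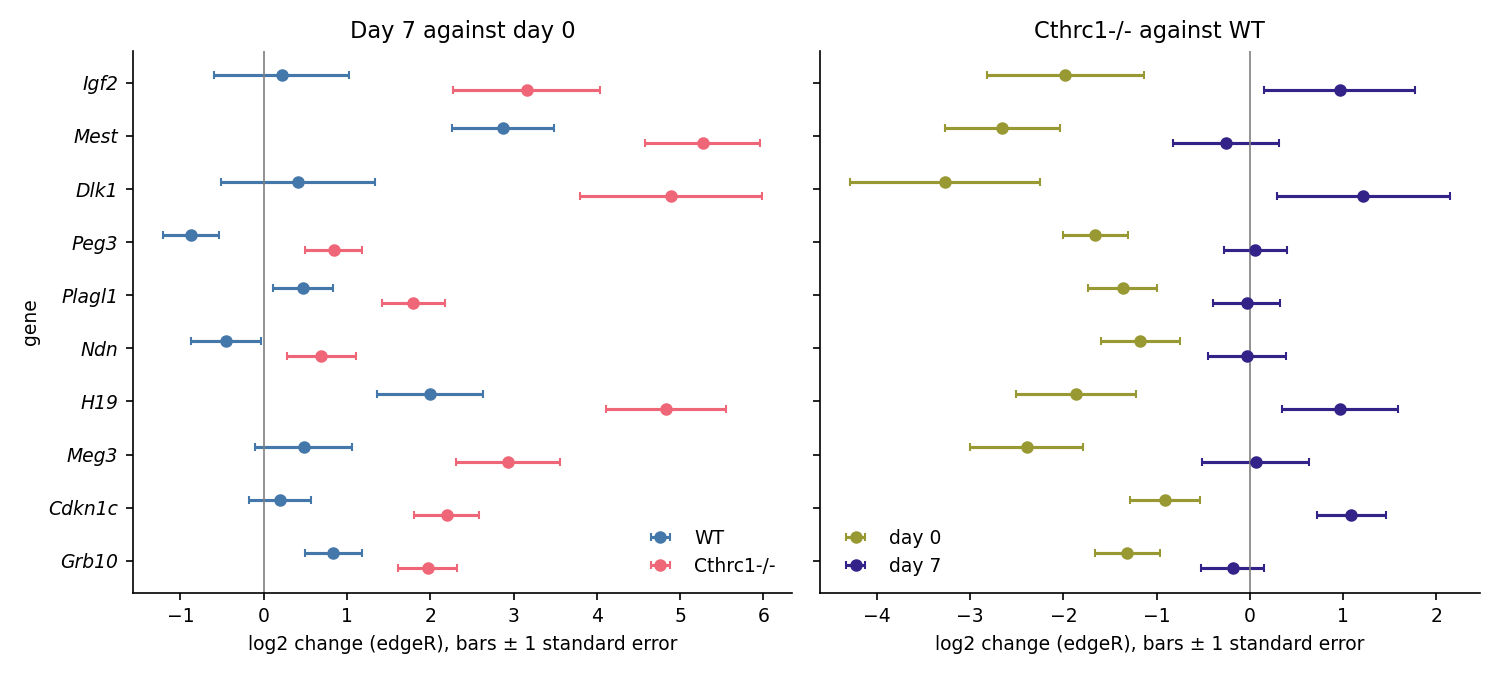
Log2 change of each gene from edgeR with bars of 1 standard error; left, day 7 against day 0 in WT (blue) and Cthrc1-/- (red); right, Cthrc1-/- against WT on day 0 (olive) and day 7 (dark blue). On the left each Cthrc1-/- point lies to the right of its WT point, and on the right all day 0 points lie left of 0 while the day 7 points lie between -0.25 and 1.22.

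On day 0, dermis without Cthrc1 held less of each of the 10 imprinted growth genes than WT dermis by mean, with a median log2 change of -1.76 against -0.05 over all genes tested. Mest, Peg3 and Meg3 were called lower (edgeR quasi-likelihood test, two-sided, Benjamini-Hochberg adjusted p under 0.05), which is 3 of 10 where 2.26% of all genes were called lower. Low Cthrc1-/- day 0 values also enlarge the day change that entered the choice of the genes. The calls on day 0 are therefore not independent of that choice, and their share is a description. The groups did not overlap for 8 of the 10, with the lower group Cthrc1-/-, as for 19.8% of all genes; the exceptions were Dlk1 and H19, both through WT replicate 2. Mest was 6.29-fold lower in Cthrc1-/- (log2 change -2.65, standard error 0.618, edgeR adjusted p 0.0419). Peg3 was 3.15-fold lower (log2 change -1.66, standard error 0.348, edgeR adjusted p 0.0345). Meg3 was 5.26-fold lower (log2 change -2.39, standard error 0.608, edgeR adjusted p 0.0494), and its cluster neighbour Rian was called lower too (log2 change -2.27, standard error 0.465; adjusted p by edgeR 0.0329).

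The other 7 did not pass on day 0, with edgeR adjusted p from 0.0532 (Grb10) to 0.156 (Igf2). Their log2 changes were -3.27 for Dlk1, -1.98 for Igf2, -1.86 for H19, -1.36 for Plagl1, -1.31 for Grb10, -1.17 for Ndn and -0.91 for Cdkn1c. With Gm49394 summed into Igf2 its change was -1.35 (standard error 0.389; adjusted p by edgeR 0.0670). The median of the 10 was then -1.51 in place of -1.76, and the summed Igf2 values of Cthrc1-/- day 0 replicates 1 to 3 were 1.51, 1.23 and 1.13 FPKM. Within Cthrc1-/- day 0, replicate 3 was the lowest for 8 of the 10 genes, against 38.8% of all genes tested. Replicate 1 was the highest for 8, against 35.8%. The marker sums of fibroblasts (2487, 1359 and 380 FPKM), fat (331, 194 and 103 FPKM) and macrophages (285, 195 and 118 FPKM) fell in that order. So did those of skeletal muscle, myogenic regeneration, other imprinted and IGF pathway genes, described below. The endothelial, dermal papilla, hair follicle and proliferation sums did not. The marker sums of fat (103 to 331 against 490 to 668 FPKM), endothelium (29.3 to 80.5 against 96.3 to 105 FPKM) and macrophages (118 to 285 against 378 to 397 FPKM) were also lower in Cthrc1-/- day 0 than in WT day 0, and the part of these cell types in the result was not tested. The 3 calls depended on the fit, as did the calls over all genes. With only the day 0 samples fitted, 0 of the 10 passed, where 0.0489% of all genes were called lower. Leaving out a WT day 0 replicate also gave 0, where 0.0559% to 0.0978% of all genes were called lower. Leaving out Cthrc1-/- replicate 2 or 3 gave 0, where 0.224% and 0.531% were. Without Cthrc1-/- replicate 1, 6 passed, where 7.30% of all genes were called lower, and 8 passed with DESeq2, where 8.24% were. With total-count scaling the calls over all genes were 3.65% upward and 1.46% downward.

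On day 7 the genotypes overlapped for 9 of the 10 genes, where 9.13% of all genes did not overlap, and 0 were called by edgeR, by limma or by DESeq2. At an unadjusted edgeR p under 0.05 there was 1 of 10, Cdkn1c, where 5.46% of all genes were, and 0.021% of all genes were called. Cdkn1c was 20.8 to 26.9 FPKM in Cthrc1-/- and 4.05 to 18.1 FPKM in WT, 1.09 on the log2 scale (standard error 0.374; adjusted p by edgeR 0.907). It was the member without overlap, with Cthrc1-/- higher as for 6.46% of all genes. Log2 changes of the other 9 lay between -0.25 (Mest) and 1.22 (Dlk1). Their 95% intervals were wide: from -0.41 to 2.35 for H19, from -0.85 to 2.77 for Igf2 and from -1.52 to 1.02 for Mest, so that neither equality nor a difference of severalfold is shown. The narrowest were those of Peg3 (-0.70 to 0.81) and Grb10 (-0.93 to 0.57). With Gm49394 summed into Igf2 its day 7 change was again 0.96, with a smaller standard error of 0.384. Its unadjusted edgeR p was then 0.0309, also under 0.05, and its adjusted p by edgeR 0.906. The width given for Igf2 above thus depends on the uncertain division of reads. The fibroblast marker sum on day 7 was lower in every Cthrc1-/- sample (at most 3660 FPKM) than in every WT sample (at least 3672 FPKM), and its part in these values was not tested.

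The difference between the genotypes in their day 7 change was computed as the interaction of genotype and day. It is the difference of the contrasts that chose the genes, so it is given here as a description. The calls made on it are listed only in the closing section, and nothing is read from them. Its estimate was above 0 for all 10 genes, a larger rise or smaller decline in Cthrc1-/-, with a median of 2.20 against 0.02 over all genes. Dlk1 had the highest estimate, 4.48 (standard error 1.37), and it reached the filter through its Cthrc1-/- day 7 samples. H19 stood at 2.83 (standard error 0.890) and Cdkn1c at 2.00 (standard error 0.528). The lowest were Ndn at 1.14 (standard error 0.592) and Grb10 at 1.13 (standard error 0.480).

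Replicates of a group varied together over the set. In WT day 7, replicate 2 was the highest sample for all 10 genes and replicate 1 the lowest for 8, whereas over all genes tested replicate 2 was highest for 26.7% and replicate 1 lowest for 57.5%. In Cthrc1-/- day 7, replicate 3 was lowest for 9 of the 10, against 40.3% of all genes. WT day 0 replicate 2 was lowest for 6, among them H19, Mest and Dlk1, and highest for Igf2, Peg3 and Meg3.

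**Figure D3:**
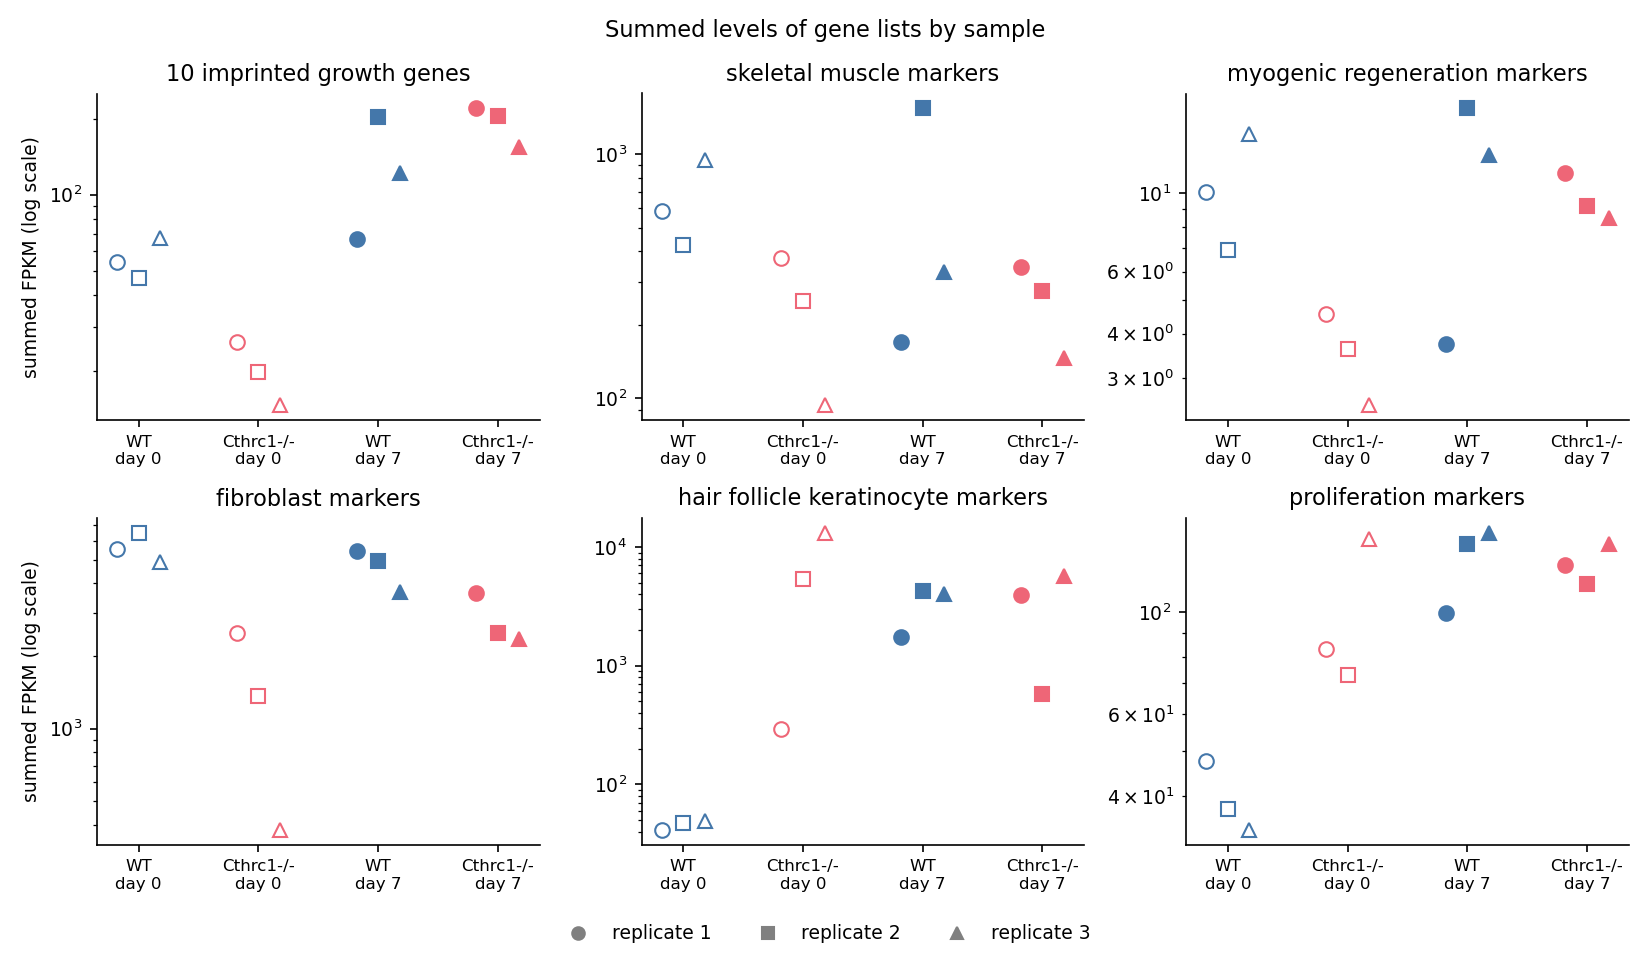
Summed FPKM per sample on a log axis for the 10 imprinted growth genes and 5 marker lists, with circle, square and triangle for replicates 1 to 3, open on day 0 and filled on day 7, blue for WT and red for Cthrc1-/-. In each group the 3 replicates stand in the same order for the growth genes as for the skeletal muscle and the myogenic regeneration markers, which does not hold for the other 3 lists in all groups.

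The summed level of the 10 genes was 54.0, 46.7 and 67.4 FPKM in WT day 0 and 26.0, 19.8 and 14.6 FPKM in Cthrc1-/- day 0. It was 66.5, 202 and 121 FPKM in WT day 7 and 220, 206 and 155 FPKM in Cthrc1-/- day 7. The sum of 15 skeletal muscle markers stood in the same replicate order in all 4 groups, at 584, 425 and 950 FPKM and 375, 251 and 93.6 FPKM on day 0, and at 171, 1538 and 328 FPKM and 346, 276 and 146 FPKM on day 7. So did 15 markers of myogenic regeneration, the formation of muscle fibres from precursors, at 10.1, 6.89 and 14.7 FPKM in WT day 0 and 4.55, 3.62 and 2.50 FPKM in Cthrc1-/- day 0. On day 7 these summed to 3.74, 17.4 and 12.9 FPKM in WT and 11.4, 9.20 and 8.53 FPKM in Cthrc1-/-. Of the 15 myogenic markers, 4 had a mean of at least 1 FPKM, and 9 were at 0 in at least 1 Cthrc1-/- day 0 sample, the muscle precursor regulators Pax7, Myf5, Myod1 and Myog among them. Myog, chosen after its values were seen, was at 1.74, 0.427 and 2.36 FPKM in WT day 0, at 0.0638, 0 and 0 FPKM in Cthrc1-/- day 0, at 0.354, 2.85 and 2.22 FPKM in WT day 7 and at 0.999, 1.43 and 1.51 FPKM in Cthrc1-/- day 7.

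Gene by gene, 7 of the 10 kept this replicate order in at least 3 of the 4 groups, where 3.04% of all genes tested did, and Dlk1 kept it in all 4, as 0.300% did. Cdkn1c kept it in 1. The order is also that of the growth genes' own sum, to which each of the 10 adds, so nothing is read from these shares. Of the other lists, none followed the order in more than 2 groups. Between days in Cthrc1-/-, the skeletal muscle sums overlapped (93.6 to 375 FPKM on day 0 and 146 to 346 FPKM on day 7). The myogenic regeneration sums did not overlap and were higher on day 7 (2.50 to 4.55 against 8.53 to 11.4 FPKM), as were the growth gene sums. The part of muscle tissue in the result was not tested.

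The wider set of imprinted genes had medians near 0 between days. It leaves out the 10 growth genes, which were chosen on their day changes, so its distance from them is only a description. From a list of 60 other imprinted genes, 28 passed the filter of a mean of at least 1 FPKM, and Zim3 and Ins2 were at 0 in every sample. Between days in Cthrc1-/-, 0 of 28 were called, with a median log2 change of 0.03, where 1.46% of all genes were called. Of the 28, 8 had an unadjusted edgeR p under 0.05, as 18.1% of all genes did, and DESeq2 called 6, where it called 9.84%. In WT 3 were called higher and 4 lower of 28, where 13.1% of all genes were called (6.04% higher and 7.1% lower). The count of 7 was 3, 1 and 1 without WT day 0 replicates 1, 2 and 3, and 3 and 4 without WT day 7 replicates 1 and 2. The share of all genes called fell too, to 4.81%, 3.68%, 3.98%, 8.35% and 6.62% in the same order. The split depended on the scaling: it was 5 higher and 1 lower with total-count scaling, where 11.7% of all genes were called higher and 3.79% lower, and 4 higher and 1 lower with limma on log2(FPKM + 1). Those that rose were Tfpi2, a protease inhibitor (log2 change 2.72, edgeR adjusted p 0.0133), Begain (1.35, edgeR adjusted p 0.00505) and Slc38a4, an amino acid transporter (1.06, edgeR adjusted p 0.0283). Those that fell were Snrpn, a splicing protein gene (-1.06, edgeR adjusted p 0.0283), Peg13 (-0.99, edgeR adjusted p 0.0308), Zrsr1 (-0.89, edgeR adjusted p 0.0451) and Osbpl5 (-0.79, edgeR adjusted p 0.0392).

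On day 0, 2 of the 28 were called higher and 1 lower in Cthrc1-/-, where 3.51% and 2.26% of all genes were, with a median of -0.26. The lower one was Rian, and the higher ones were Begain (log2 change 1.28, edgeR adjusted p 0.0144) and Phlda2, a maternally expressed growth restrainer that lies on distal chromosome 7 near Cdkn1c. Phlda2 was at 1.14, 0.962 and 1.32 FPKM in WT day 0 and at 4.39, 9.39 and 15.1 FPKM in Cthrc1-/- day 0, 2.92 on the log2 scale (standard error 0.487; adjusted p by edgeR 0.0213), opposite in sign to Cdkn1c. Its 3 Cthrc1-/- values stood in the order of the hair follicle keratinocyte sums (291, 5358 and 13191 FPKM), and the part of hair follicle cells was not tested. On day 7 Phlda2 was at 1.25 to 3.37 FPKM in WT and 2.22 to 5.18 FPKM in Cthrc1-/-, overlapping. Gnas was at 26.5 to 59.2 FPKM over the 12 samples, Peg10 at 0.235 to 1.61 FPKM and Kcnq1ot1 at no more than 0.0611 FPKM. Peg10 and Kcnq1ot1 were too low to be tested, and Gnas was called in no comparison.

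**Figure D4:**
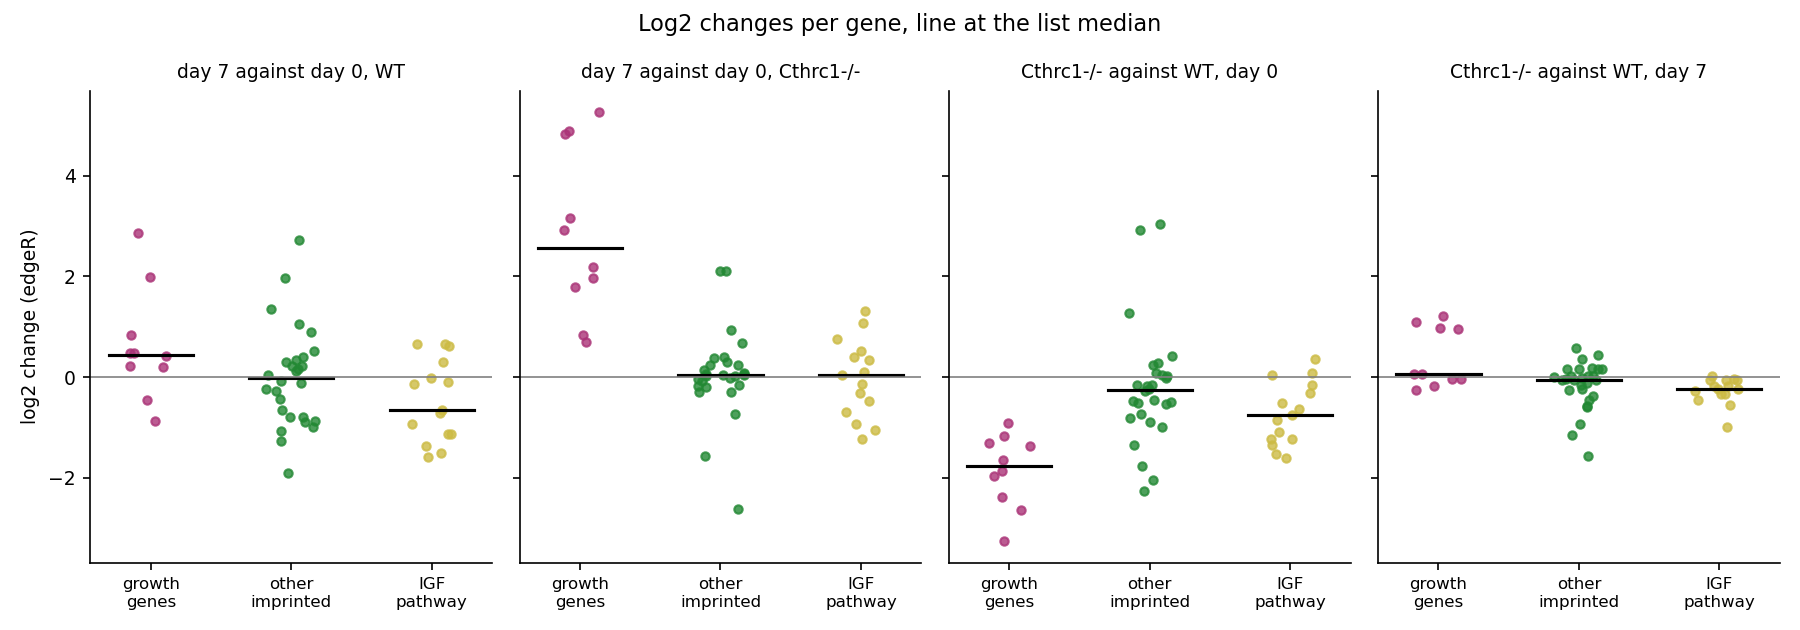
Log2 change per gene from edgeR in 4 comparisons, with a point for each tested gene of the 10 growth genes (purple), the 28 other imprinted genes (green) and the 15 IGF pathway genes (yellow) and a line at each list's median. The growth gene medians are 0.44, 2.56, -1.76 and 0.06 from left to right, and those of the other imprinted genes -0.02, 0.03, -0.26 and -0.05. The growth genes were chosen on their day changes, so the lists are set side by side as a description.

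Genes of the IGF pathway through which Igf2 and Grb10 act were described from a list of 25, of which 15 were tested. Between days in WT 0 were called higher and 2 lower, Irs2, an insulin receptor substrate (log2 change -1.51, edgeR adjusted p 0.0149), and Igfbp3, an IGF binding protein (-1.58, edgeR adjusted p 0.0411). Over all genes 6.04% were called higher and 7.1% lower. With total-count scaling the split of the IGF genes was 2 higher and 1 lower, and with the replicate block it was 1 and 1. The count of 2 was 0 without WT day 0 replicate 2 or 3 or WT day 7 replicate 2, and 1 without replicate 1 of either day. In those 5 fits the share of all genes called lay between 3.68% and 8.35%. In Cthrc1-/- 0 of 15 were called by edgeR between days, where 1.46% of all genes were. At an unadjusted edgeR p under 0.05 there were 7, where 18.1% of all genes were, and DESeq2 called 4, where it called 9.84%. Between genotypes edgeR called 0 of 15 on day 0, where it called 5.78% of all genes, and 0 on day 7, where it called 0.021%. The unadjusted edgeR p was under 0.05 for 6 on day 0, where 28.4% of all genes passed. On day 7 it was under 0.05 for 0, where 5.46% passed. Igf1, the postnatal relative of Igf2, was at 3.23 to 4.01 FPKM in WT day 0, 1.08 to 2.85 FPKM in Cthrc1-/- day 0, 3.35 to 10.9 FPKM in WT day 7 and 4.38 to 7.71 FPKM in Cthrc1-/- day 7. The receptor gene Igf1r stayed between 2.47 and 3.86 FPKM over all 12 samples. Igf2r, which clears IGF2 and is itself maternally expressed in the mouse, was at 6.38 to 7.49 FPKM on day 0 and 8.59 to 12.1 FPKM on day 7, without overlap but with no call in either genotype (edgeR adjusted p 0.153 in WT and 0.162 in Cthrc1-/-). The fetal IGF2 mRNA-binding protein genes were low: Igf2bp1 was at most 0.0688 FPKM and Igf2bp3 at most 0.227 FPKM, while Igf2bp2 was at 0.424 to 2.57 FPKM, highest in WT day 7 replicate 1.

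Likeness was measured as Pearson's r of log2(FPKM + 1) over the 12 samples, which share their group means, their libraries and the order of replicates, so r is given as a description. The genes outside the set most like H19 were Rbfox2 (r 0.956), Tbx2 (0.951), A030001D20Rik (0.950), Capn6 (0.948) and Fbxw17 (0.943). For Mest they were Lrrc17 (r 0.968), Scpep1 (0.967), Bace1 (0.966), Tnnt1, a slow muscle troponin (0.962), and AW551984 (0.962). For Igf2 they were Ptpra (r 0.971), Cep250 (0.924), Inpp5b (0.923), Mfap1a (0.921) and Adcy7 (0.916), with the low value of Cthrc1-/- day 0 replicate 1 included. For Dlk1 they were Stx12 (r 0.916), Rtl3 (0.904), Map3k7cl (0.903), Gm15122 (0.902) and Tmem44 (0.897). Within the set, H19 was most like Mest (r 0.954, the second of all genes by likeness to H19) and Dlk1 (r 0.913), and least like Peg3 (r 0.375) and Ndn (r 0.482).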

How the data were processed

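Counts and FPKM per gene for the 12 samples came from the deposited table. Per the submitters' processing notes, the tools named were cutadapt 1.9, HISAT2 2.0.4, UMI-tools, StringTie 1.3.4d, DESeq2 and edgeR, on GRCm38, with no role or order given. Per the labels' protocols, RNA was poly(A)-selected and libraries were strand-specific by the dUTP method. FPKM was computed by the authors, who wrote 0.0001 for a count of 0, read here as 0. In the deposited counts a value of 4 was 3.16 to 4.05 times as frequent as the mean of 3 and 5, so a low count is not 1 fragment, and division by 4 was an alternative.

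Symbols were matched by gene ID (55141 of 55401 IDs). The 14313 genes whose FPKM averaged 1 or more across the 12 samples were tested on the deposited counts with edgeR 4.0.16 (TMM, glmQLFTest, two-sided, R 4.3.3) in 1 fit with a mean per group, and adjusted p was taken over all of them by Benjamini-Hochberg. The filter passed all 10 members, Dlk1 only through Cthrc1-/- day 7. Standard errors are the log2 change over the square root of F. The 10 genes, the 2 gene lists and the 9 marker lists were chosen with earlier results of these data known. From the other lists the text names at most 4 called rises and 4 falls per comparison and 12 neighbours or partners of members; the 5 genes most like H19, Igf2, Mest and Dlk1 were taken by Pearson's r. Alternatives were total-count and upper-quartile scaling, DESeq2 1.42.0, limma 3.58.1 on log2(FPKM + 1) and log2(FPKM + 0.1), no filter, counts over 4, a replicate block, only the 2 groups compared, and leaving out each replicate. Added after seeing the data were leaving out WT day 7 replicate 1 with Cthrc1-/- day 0 replicate 3, and summing Igf2 with Gm49394. The series names biological replicates without tying them to animals, so p-values measure the spread between these samples. The fits were tested on simulated counts.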

Additional observations from a re-analysis of the deposited data

Results flagged for a closer look

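Peg3 was the member whose samples moved in opposite directions in the 2 genotypes: all 3 WT day 7 samples (1.49 to 3.83 FPKM) lay below the WT day 0 samples (4.37 to 5.10 FPKM), and all 3 Cthrc1-/- day 7 samples (2.35 to 4.05 FPKM) lay above those of day 0 (1.07 to 1.98 FPKM). The interaction estimate was 1.71 on the log2 scale (standard error 0.483). It restates the day changes that chose the genes, so the difference between the genotypes was not tested independently. The day 7 ranges of the genotypes overlap, and the day 0 ranges do not.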

How the results depend on the processing

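The count of growth genes called lower in Cthrc1-/- on day 0, 3 as reported, was 8 with DESeq2, 0 without the filter, 0 with only the 2 groups fitted and 0 to 6 with a replicate left out, while all 10 estimates stayed below 0 under the 17 alternatives run. Over all genes 8.24% were called lower with DESeq2, 0.207% without the filter and 0.0489% with only the 2 groups. The interaction is made of the contrasts that chose the genes, and nothing is read from it. For it edgeR called 0 of the 10, where it called 0.0140% of all genes, and leaving out a replicate gave 0 to 0. DESeq2 called 4, all above 0, where it called 4.76% of all genes, 1.46% above 0. On day 7 between genotypes no alternative called any of the 10. Other imprinted genes called between days in WT, 7 as reported, numbered 4 without the filter and 1 to 5 with a replicate left out. Over all genes the share called there was 3.77% without the filter and 3.68% to 14.3% with a replicate left out. IGF pathway genes called between days in WT, 2 as reported, numbered 5 with DESeq2, 5 without WT day 7 replicate 1 and Cthrc1-/- day 0 replicate 3 together, and 0 to 3 with a replicate left out. DESeq2 called 24.8% of all genes there, and the fit without those 2 samples 19.2%. In Cthrc1-/-, where 0 were reported for either list, other imprinted genes called were 4 with total-count scaling, 1 with upper-quartile scaling, 6 with DESeq2, 4 with limma on log2(FPKM + 1) and 4 on log2(FPKM + 0.1), 2 with the replicate block, 2 without those 2 samples together and 0 to 1 with a replicate left out. IGF pathway genes called there were 2 with total-count scaling, 4 with DESeq2, 2 with either limma fit, 5 without the 2 samples together and 0 to 1 with a replicate left out. Over all genes the share called there was 5.22% with total-count scaling, 2.32% with upper-quartile scaling and 9.84% with DESeq2. It was 5.41% and 5.40% with the limma fits, 2.03% with the replicate block and 11.5% without the 2 samples together. The cause was not tested, beyond there being fewer samples or more genes in some fits. Total-count scaling moved the median of all genes by 0.20 in WT and 0.17 in Cthrc1-/- between days, and by 0.10 between genotypes on day 0.

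Values near 0 changed sign. Between genotypes on day 7, Plagl1 was 0.016 with total-count scaling and 0.064 and 0.090 with the limma fits. Ndn was 0.055, 0.021, 0.039 and 0.044 with total-count scaling, upper-quartile scaling and the limma fits, and 0.043 without the 2 samples together. Without those samples Peg3 was -0.24 and Meg3 -0.10, and Meg3 was -0.13 with the replicate block. With a replicate left out the ranges were -0.58 to 0.29 (Mest), -0.24 to 0.28 (Peg3), -0.30 to 0.27 (Plagl1), -0.14 to 0.089 (Ndn) and -0.48 to 0.39 (Meg3). Between days in WT they were -0.13 to 0.59 (Igf2), -0.14 to 1.42 (Dlk1) and -0.32 to 0.68 (Cdkn1c). With the replicate block 3 of the 10 were called on day 0, but Mest was lost (adjusted p 0.0602) and Grb10 gained (adjusted p 0.0476). Same-numbered samples correlated at -0.232 to 0.426 in their deviations, which with 3 samples per group cannot decide whether they are paired. In WT between days each sample correlated best with its own number. So did replicate 3 between days in Cthrc1-/- and between genotypes on day 7, and replicate 1 between genotypes on day 0. The remaining samples correlated best with another number.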
